A study of Mus musculus with 11 samples.

Results

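The genes described here encode the cytosolic translation initiation factors (eIF1 to eIF6) and elongation factors (eEF1 and eEF2) of the mouse, with the enzymes and binding proteins that carry their names. They were chosen by symbol alone: every symbol of the gene table that begins with Eif1 to Eif6 or with Eef1 or Eef2 was taken, except the 4 eIF2 kinases and 10 entries named as pseudogenes. This gave 65 genes among 54686 entries of the table. Of these, 60 reached at least 1 FPKM (fragments per unit of transcript length and of sequencing depth, a level corrected for gene length) in at least 2 libraries and were tested, beside 12626 entries in all. The other 5 were Eef1a2, Eif4e1b, Eif4ebp3, Eef1akmt3 and Eif2s3y, and they are given by level only.

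The levels came from RNA sequencing of the mouse melanoma line B16-OVA, of C57BL/6J origin, which carries ovalbumin as a model antigen. All cells were transfected, either with a control siRNA or with pooled siRNAs that target YAP and TAZ. These proteins, the products of Yap1 and Wwtr1, are co-activators of transcription at the end of the Hippo pathway. The heated groups were brought to 45 °C for 1 h, 48 h after transfection, and harvested after 6 h of recovery at 37 °C. Each group had 3 libraries except the heated control, which had 2 (replicates 1 and 3). Its replicate 2 was not analysed here. All groups are cells of 1 line.

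Initiation begins when eIF2, loaded with GTP and the initiator tRNA, joins the small ribosomal subunit together with eIF1, eIF1A, eIF3 and eIF5, and the cap-binding complex eIF4F brings in the mRNA. eIF2B recharges eIF2 with GTP after each round, and stress kinases that phosphorylate the alpha subunit of eIF2 block that step. During elongation eEF1A delivers aminoacyl-tRNA, the eEF1B subunits recharge eEF1A, and eEF2 moves the ribosome along the mRNA. Heat shock is known to lower bulk protein synthesis, mainly through these factors as proteins, whereas only their RNA was measured here.

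Depth, estimated from the smallest step between low values (1 read or fragment, M for mega), was 38.3 to 43.9 M in the unheated control, 34.1 to 36.6 M in the heated control, 39.2 to 41.4 M in the unheated YAP/TAZ siRNA and 30.5 to 38.5 M in the heated YAP/TAZ siRNA libraries. The heated control libraries had 23173 to 23242 entries above 0, against 20000 to 21662 in the others. All 7 melanocyte markers passed the filter, with a summed level of 6261 to 8191 FPKM. The summed level of Yap1 and Wwtr1 was 12.1 to 23.8 FPKM in the 5 control siRNA libraries and 3.66 to 4.85 FPKM in the 6 YAP/TAZ siRNA libraries. The labels do not say whether replicates were separate cultures. If they were not, the p-values reflect a technical spread between libraries alone.

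Under control siRNA, heat left the translation factor genes on both sides of 0. Of the 60 genes tested, 9 were called higher and 17 lower in heated cells, where 12.4% of all genes tested were called higher and 36.9% lower. A gene was called at a Benjamini-Hochberg adjusted p under 0.05 over all genes, from 1 limma fit of log2(FPKM + 1), and a log2 change is the difference of group means on that scale. The members' median log2 change was -0.067, against -0.16 for all genes. That median of all genes moved to -0.027 when libraries were scaled by median ratios, and the members' calls then split into 20 higher and 9 lower. They split into 11 and 11 after quantile normalization and into 7 and 26 when every library was set to 1 total. In bulk RNA, fewer cells of a type and less RNA per cell cannot be told apart. The summed level of 5 macrophage markers was 6.13 to 6.63 FPKM in the heated control and 1.47 to 3.24 FPKM in the other libraries, with 2 of 5 past the filter and 1 at 0 in all libraries. The 3 lymphocyte markers summed to 1.83 to 1.87 FPKM there and to 0 to 0.314 FPKM elsewhere, and the 3 endothelial markers to 0.929 to 1.08 and to 0.0035 to 0.133 FPKM. Their part in the result was not tested.

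Under YAP/TAZ siRNA, the called genes were mostly higher in heated cells. Heated cells had 31 of 60 members called higher and 4 called lower, where 18.6% of all genes were called higher and 31.7% lower. The members' median log2 change was 0.21, against -0.086 for all genes. The split was 36 and 3 with median ratios, 28 and 9 after quantile normalization and 25 and 11 with 1 total per library. The heat change under YAP/TAZ siRNA was called above that under control siRNA (the interaction of heat and siRNA) for 34 members. It was called below it for 1 member, Eif2b2, against 24.6% and 13.4% of all genes. Called or not, the interaction was above 0 for 52 members and below 0 for 8. The calls were compared across scalings. The calls split into 27 and 1 with median ratios or with 1 total, and into 19 and 3 after quantile normalization.

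Without heat, YAP/TAZ siRNA went with lower levels: 31 of 60 members were called lower and 7 higher, against 21.9% and 27.1% of all genes. The members' median log2 change was -0.20 and that of all genes 0.023. The split was 38 lower and 7 higher with median ratios, and 25 and 10 after quantile normalization. After heat, YAP/TAZ siRNA cells had 21 members called higher and 12 lower than heated control cells, against 36.3% and 17.9% of all genes, and the members' median of 0.12 was close to that of all genes (0.13). This last split turned to 11 higher and 19 lower with median ratios and to 14 and 18 after quantile normalization. Without heated control replicate 1 the higher calls numbered 11.

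**Figure D1:**
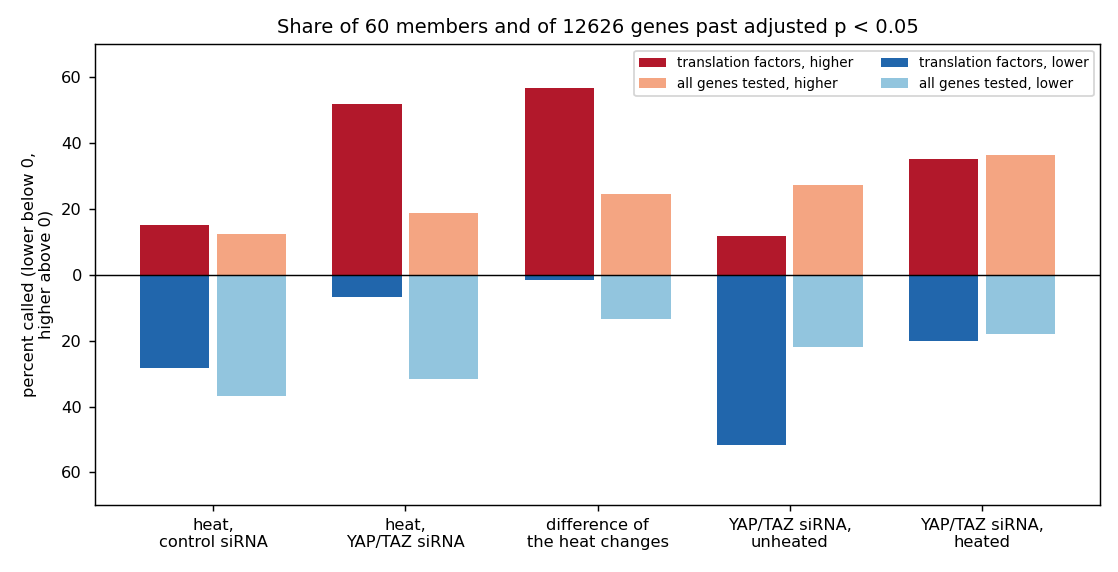
Percent of the 60 tested translation factor genes (dark bars) and of all 12626 tested genes (light bars) called higher (above 0) or lower (below 0) in each of the 5 comparisons, on a linear axis. Dark bars stand well above light bars for higher calls with heat under YAP/TAZ siRNA (31 of 60 against 18.6%) and in the difference of the heat changes (34 of 60 against 24.6%), and reach lower for lower calls with YAP/TAZ siRNA without heat (31 of 60 against 21.9%).

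Across the 5 comparisons 53 of the 60 members were called at least once. The matching share of all genes was not counted, so this count does not set the members apart. The 7 that were called in none were Eef1akmt2, Eif1a, Eif2d, Eif3j1, Eif4ebp1, Eif4g2 and Eif4h. The heat calls under the 2 siRNAs, which share no libraries, had 7 higher genes in common: Eef1b2, Eef1g, Eef2, Eif1, Eif3f, Eif3h and Eif3j2. They were 77.8% of the 9 higher under control siRNA and 22.6% of the 31 higher under YAP/TAZ siRNA. Since 31 of the 60 members were higher under YAP/TAZ siRNA, many shared genes arise without any link between the lists. Matching overlaps over all genes were not counted, for these lists or those that follow. The 4 genes lower under YAP/TAZ siRNA, namely Eif2c5, Eif4ebp2, Eif4enif1 and Eif5a2, were all among the 17 lower under control siRNA. Another 4 members were called lower with heat under control siRNA and higher with heat under YAP/TAZ siRNA (Eef1e1, Eef1akmt4, Eif2b1 and Eif2b5), and 0 the other way round. All 4 falls under control siRNA were lost with median ratios and without heated control replicate 1, with log2 changes at their weakest of -0.042, -0.15, -0.038 and -0.038, and the rises of Eif2b1 and Eif2b5 under YAP/TAZ siRNA were lost with 1 total per library.

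**Figure D2:**
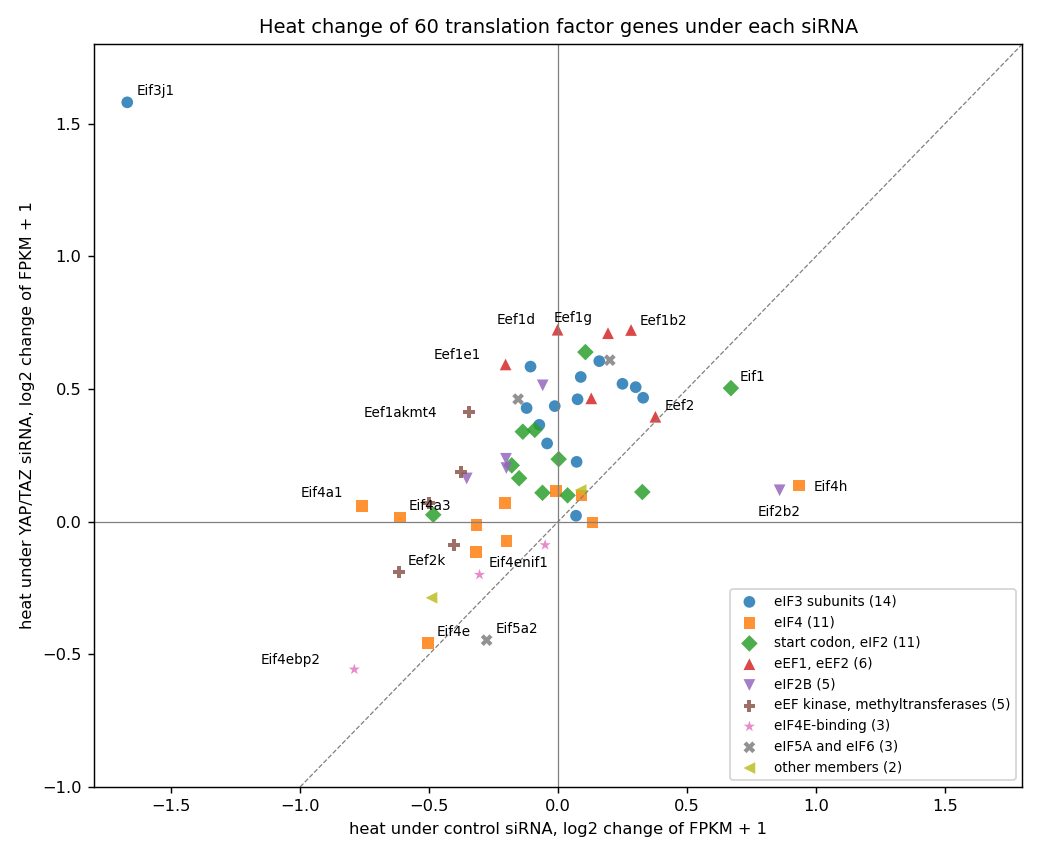
Each point is 1 of the 60 tested members, with its log2 change with heat under control siRNA on the x axis and under YAP/TAZ siRNA on the y axis, marked by role, and the dashed line marks equal change. Most eIF3 and eEF points lie above the dashed line, Eif2b2 (0.86 and 0.12) lies below it, and Eif3j1, called in no comparison, stands far out.

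Translation factor mRNAs are known for starts made of a C followed by a run of pyrimidines, the terminal oligopyrimidine start that ties their translation to growth signals, so the annotated starts of the members were read. The letters around 4 RefSeq starts (GRCm38.p6, 15 bases on either side, 5′ to 3′ on the transcribed strand) are shown because these members differ in how they moved. Capitals mark the run that begins with C.
Eef1a1, chr9:78481710-78481739, minus strand: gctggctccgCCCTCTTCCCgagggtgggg
Eif3f, chr7:108934400-108934429, plus strand: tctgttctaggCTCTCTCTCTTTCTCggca
Eif3l, chr15:79075208-79075237, plus strand: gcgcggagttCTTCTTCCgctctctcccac
Eif2s3x, chrX:94212637-94212666, minus strand: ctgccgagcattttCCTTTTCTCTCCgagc
Eif3f was called higher with heat under both siRNAs and higher with YAP/TAZ siRNA, Eef1a1 and Eif3l were called higher with heat under YAP/TAZ siRNA and not under control siRNA, and Eif2s3x was not called with heat and was lower with YAP/TAZ siRNA with and without heat. The windows of Eef2 and Eef1b2 hold no such run at the annotated start, which does not show that their mRNAs lack one.
Eef2, chr10:81176616-81176645, plus strand: tataaaaggccgggcgttgacgtcagcggt
Eef1b2, chr1:63176816-63176845, plus strand: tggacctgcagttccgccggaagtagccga

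A C followed by at least 4 more C or T on the transcribed strand, with that C within 10 bases of the start, was present in 30.2% of the 63 promoters found for 49 members. It was present in 30.7% of all 32851 promoters of the RefSeq table and in 31.9% of those of genes past the filter. With heat under YAP/TAZ siRNA, 7 of 15 tested members with such a start and 16 of 32 without one were called higher, against 18.6% of all genes, with median log2 changes of 0.12 and 0.21. The interaction was called higher for 4 of the 15 members with such a start and for 22 of the 32 without one, against 24.6% of all genes, with median log2 differences of 0.20 and 0.42. With YAP/TAZ siRNA after heat, 4 members with such a start were higher and 5 lower, and 13 without one were higher and 6 lower. Of all genes, 36.3% were higher and 17.9% lower in that comparison. The split of all members there turned to 11 higher and 19 lower with median ratios. Whether members with and without such a start differed was not tested. RefSeq starts can lie some bases from the start used in these cells, and no start was measured here. Members counted as without such a start, Eef2 and Eef1b2 among them, may therefore still have one.

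The factors of start codon selection and of initiator tRNA delivery numbered 11 tested genes. With heat, 2 rose and 1 fell under control siRNA, and 6 rose and 0 fell under YAP/TAZ siRNA. With YAP/TAZ siRNA without heat, 6 were lower and 0 higher, and after heat 3 were higher and 3 lower. Their median log2 change with heat was -0.061 under control siRNA (positive with median ratios, 0.092, and after quantile normalization, 0.056) and 0.21 under YAP/TAZ siRNA. Of all genes, heat raised 12.4% and lowered 36.9% under control siRNA, and 18.6% and 31.7% under YAP/TAZ siRNA. YAP/TAZ siRNA raised 27.1% and lowered 21.9% of all genes without heat, and 36.3% and 17.9% after heat.

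Eif2s1 (chr12:78861819-78887010, plus strand) encodes the alpha subunit of eIF2, the target of the stress kinases. It read 46.6, 48.9 and 49.6 FPKM in the unheated control libraries, 50.5 and 53.8 in the heated control, 26.6, 28.6 and 31.7 in the unheated YAP/TAZ siRNA and 47.8, 43.9 and 45.1 in the heated YAP/TAZ siRNA libraries. The 3 unheated YAP/TAZ siRNA libraries were the lowest, below every library of the other groups. YAP/TAZ siRNA without heat lowered Eif2s1, with a log2 change of -0.72 ± 0.065 (adjusted p = 1.98e-05), heat under YAP/TAZ siRNA raised it by 0.64 ± 0.065 (adjusted p = 9.41e-05), and the interaction was 0.53 ± 0.10 (adjusted p = 0.00282). Heat under control siRNA gave a log2 change of 0.11 ± 0.073 (adjusted p = 0.262), which was not called.

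Eif2s3x (chrX:94188707-94212862, minus strand) encodes the gamma subunit of eIF2, which binds the initiator tRNA. It read 63.1, 65.3 and 61.6 FPKM in the unheated control libraries, 63.5 and 66.5 in the heated control, 38.98, 41.1 and 37.5 in the unheated YAP/TAZ siRNA and 41.8, 44.5 and 39.9 in the heated YAP/TAZ siRNA libraries. The siRNA groups did not overlap at either temperature, and heat was called under neither siRNA. The log2 change with YAP/TAZ siRNA was -0.68 ± 0.053 (adjusted p = 8.06e-06) without heat and -0.62 ± 0.059 (adjusted p = 2.87e-05) after heat. The Y-linked copy Eif2s3y was listed at 0 in all 11 libraries. The beta subunit gene Eif2s2 lay at 18.4 to 25.9 FPKM in all libraries, and its lower call with YAP/TAZ siRNA (log2 change -0.26 ± 0.090, adjusted p = 0.0394) was lost without any 1 of the 5 control libraries or unheated YAP/TAZ siRNA replicate 1 or 2. It was also lost with no filter and after quantile normalization.

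Eif1 (chr11:100319885-100322096, plus strand) encodes the factor that guards start codon choice. It read 58.9, 56.4 and 62.1 FPKM in the unheated control libraries, 90.6 and 98.9 in the heated control, 60.2, 64.8 and 72.8 in the unheated YAP/TAZ siRNA and 91.7, 86.5 and 103 in the heated YAP/TAZ siRNA libraries. Heated libraries were higher than unheated ones under both siRNAs, by a log2 change of 0.67 ± 0.095 (adjusted p = 0.000339) under control siRNA and 0.50 ± 0.085 (adjusted p = 0.00123) under YAP/TAZ siRNA, and the interaction was not called (-0.17 ± 0.13, adjusted p = 0.334). Its paralog Eif1b fell with heat under control siRNA instead (log2 change -0.48 ± 0.10, adjusted p = 0.00275), gave 0.025 ± 0.087 (adjusted p = 0.829) under YAP/TAZ siRNA and was higher with YAP/TAZ siRNA after heat (0.68 ± 0.10, adjusted p = 0.000335). Eif1ax, which encodes eIF1A, and Eif5b, whose product joins the ribosomal subunits, rose with heat under YAP/TAZ siRNA (log2 change 0.35 ± 0.057 and 0.34 ± 0.055) and were not called with heat under control siRNA. Eif5, which encodes the GTPase activator of eIF2, rose with heat under control siRNA (log2 change 0.33 ± 0.10, adjusted p = 0.0255), a call that was lost without unheated control replicate 1 or 3 or either heated control library. That call of Eif5 was also lost with 1 total. Eif1 and Eif1ax have near-identical processed copies in the genome, so their values are uncertain.

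The 5 genes of eIF2B were split under control siRNA, where heat raised 1 and lowered 3, and under YAP/TAZ siRNA heat raised 3 and lowered 0. The interaction was called higher for 4 and lower for 1. Their median log2 change with heat was 0.20 under YAP/TAZ siRNA and -0.20 under control siRNA. Of all genes, heat raised 12.4% and lowered 36.9% under control siRNA, and 18.6% and 31.7% under YAP/TAZ siRNA. For all genes the interaction was called higher for 24.6% and lower for 13.4%. With median ratios only the rise of Eif2b2 under control siRNA was called, and with 1 total only 1 rise under YAP/TAZ siRNA.

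Eif2b2 (chr12:85219481-85226628, plus strand), the beta subunit, was the 1 member whose heat change was called smaller under YAP/TAZ siRNA than under control siRNA. It read 23.6, 22.2 and 26.5 FPKM in the unheated control libraries, 47.5 and 41.4 in the heated control, 22.6, 20.1 and 24.4 in the unheated YAP/TAZ siRNA and 23.9, 22.8 and 26.2 in the heated YAP/TAZ siRNA libraries. The 2 heated control libraries were above all 9 others, which overlapped among themselves. Heat raised it by a log2 change of 0.86 ± 0.10 (adjusted p = 0.000123) under control siRNA, gave 0.12 ± 0.093 (adjusted p = 0.318) under YAP/TAZ siRNA, and the interaction was -0.74 ± 0.14 (adjusted p = 0.00313). After heat it was lower with YAP/TAZ siRNA, with a log2 change of -0.84 ± 0.10 (adjusted p = 0.000134).

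Eif2b1 (chr5:124570213-124579131, minus strand), the alpha subunit, had an interaction of the other sign. It read 34.1, 32.1 and 36.4 FPKM in the unheated control libraries, 29.6 and 29.5 in the heated control, 22.1, 20.8 and 21.8 in the unheated YAP/TAZ siRNA and 26.1, 23.9 and 24.8 in the heated YAP/TAZ siRNA libraries. All 6 YAP/TAZ siRNA libraries lay below the 5 control libraries. Its log2 change with YAP/TAZ siRNA was -0.64 ± 0.054 (adjusted p = 1.33e-05) without heat, and heat gave -0.20 ± 0.061 (adjusted p = 0.0207) under control siRNA and 0.20 ± 0.054 (adjusted p = 0.0127) under YAP/TAZ siRNA. The fall under control siRNA was lost without unheated control replicate 3 or either heated control library, and the rise under YAP/TAZ siRNA without heated YAP/TAZ siRNA replicate 1. The fall of Eif2b1 was also lost with median ratios and after quantile normalization, and its rise with 1 total. Eif2b3, the gamma subunit, was at 2.90 to 3.43 FPKM in the unheated YAP/TAZ siRNA libraries and at 4.51 to 5.27 FPKM in all others.

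The 14 genes of eIF3, the scaffold that holds the small subunit, the mRNA and the other factors together, were mostly higher after heat when YAP and TAZ were targeted. Under YAP/TAZ siRNA 12 of 14 rose with heat and 0 fell, with a median log2 change of 0.46. Under control siRNA 3 rose and 0 fell, with a median of 0.070 that was -0.0043 with 1 total per library. The interaction was called higher for 10 (3 after quantile normalization). YAP/TAZ siRNA without heat lowered 9 and raised 1, with a median of -0.28, and after heat 5 were higher and 3 lower (1 and 5 with median ratios or quantile normalization). Of all genes, heat raised 18.6% and lowered 31.7% under YAP/TAZ siRNA, and 12.4% and 36.9% under control siRNA. The interaction was called higher for 24.6% of all genes. YAP/TAZ siRNA lowered 21.9% and raised 27.1% of all genes without heat, and after heat 36.3% were higher and 17.9% lower.

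Eif3b (chr5:140419328-140443360, plus strand), a subunit of the eIF3 core, read 209, 211 and 219 FPKM in the unheated control libraries, 206 and 207 in the heated control, 149, 150.3 and 155 in the unheated YAP/TAZ siRNA and 193, 189 and 176 in the heated YAP/TAZ siRNA libraries. The 3 unheated YAP/TAZ siRNA libraries were the lowest and the heated ones lay between them and the control libraries. Its log2 change was -0.49 ± 0.043 (adjusted p = 1.73e-05) with YAP/TAZ siRNA without heat and 0.29 ± 0.043 (adjusted p = 0.000579) with heat under YAP/TAZ siRNA. The rise turned to -0.069 after quantile normalization.

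Eif3h (chr15:51786558-51865523, minus strand) read 167, 169 and 182 FPKM in the unheated control libraries, 209.6 and 216 in the heated control, 169, 171 and 180.2 in the unheated YAP/TAZ siRNA and 249.8, 238 and 252 in the heated YAP/TAZ siRNA libraries. Heated libraries were above unheated ones under both siRNAs, and the unheated groups overlapped. Heat raised it by a log2 change of 0.30 ± 0.052 (adjusted p = 0.00116) under control siRNA and 0.51 ± 0.047 (adjusted p = 5.5e-05) under YAP/TAZ siRNA. The second call was lost after quantile normalization, with a log2 change of 0.052.

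Eif3f (chr7:108934417-108942951, plus strand) was the 1 subunit that was higher with YAP/TAZ siRNA without heat. It read 42.6, 44.9 and 51.4 FPKM in the unheated control libraries, 54.6 and 62.1 in the heated control, 55.96, 56.7 and 65.1 in the unheated YAP/TAZ siRNA and 86.6, 81.9 and 77.99 in the heated YAP/TAZ siRNA libraries. The heated YAP/TAZ siRNA libraries were the highest of all. Its log2 change was 0.35 ± 0.087 (adjusted p = 0.00838) with YAP/TAZ siRNA without heat, 0.49 ± 0.10 (adjusted p = 0.00236) with YAP/TAZ siRNA after heat, and 0.33 ± 0.10 (adjusted p = 0.0193) and 0.47 ± 0.087 (adjusted p = 0.00213) with heat under control and YAP/TAZ siRNA. The call under control siRNA was lost without unheated control replicate 1 or 2 or heated control replicate 3.

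Eif3l (chr15:79075179-79094405, plus strand) read 83.7, 82.6 and 85.1 FPKM in the unheated control libraries, 80.9 and 78.3 in the heated control, 59.96, 62.97 and 61.9 in the unheated YAP/TAZ siRNA and 77.3, 78.9 and 82.7 in the heated YAP/TAZ siRNA libraries. The unheated YAP/TAZ siRNA libraries lay apart below the rest, and the heated ones overlapped both control groups. The interaction was a log2 difference of 0.44 ± 0.059 (adjusted p = 0.00055). It lost its call after quantile normalization (0.19).

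Eif3a (chr19:60761117-60790658, minus strand), the largest subunit, read 151, 157 and 142 FPKM in the unheated control libraries, 158 and 157 in the heated control, 138, 139.8 and 127 in the unheated YAP/TAZ siRNA and 134, 145 and 131 in the heated YAP/TAZ siRNA libraries. Heat was called under neither siRNA (log2 change 0.069 ± 0.064 and 0.022 ± 0.057), and the heat change under YAP/TAZ siRNA was -0.32 and called after quantile normalization. YAP/TAZ siRNA gave a log2 change of -0.16 ± 0.057 (adjusted p = 0.0469) without heat and -0.20 ± 0.064 (adjusted p = 0.0229) after heat, and both calls were lost without either heated control library or without heated YAP/TAZ siRNA replicate 1. The call without heat was also lost with no filter, with 1 total and after quantile normalization. Of the other subunits, Eif3d, Eif3e, Eif3g, Eif3i, Eif3k and Eif3m rose with heat under YAP/TAZ siRNA and were not called under control siRNA, with log2 changes under YAP/TAZ siRNA of 0.43 to 0.60.

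Eif3j1 and its near copy Eif3j2 encode the loosely bound subunit eIF3j, and their values are uncertain. Eif3j1 (chr2:122028546-122056598, plus strand) read 26.1, 26.7 and 26.7 FPKM in the unheated control libraries, 1.203 and 32.8 in the heated control, 15.9, 0.587 and 17.2 in the unheated YAP/TAZ siRNA and 22.8, 21.8 and 23.1 in the heated YAP/TAZ siRNA libraries. Heated control replicate 1 and unheated YAP/TAZ siRNA replicate 2 stood far below all other libraries. In exactly these 2 libraries Gm47314, a miRNA entry inside Eif3j1 on the same strand (chr2:122028642-122028709), was listed at 34.8 and 17.4 FPKM, and in the other 9 at 0.0004 to 0.0005 FPKM. Alone, Eif3j1 was called in no comparison. Summed with Gm47314, it rose with heat by a log2 change of 0.36 ± 0.060 (adjusted p = 0.000872) under control siRNA and 0.39 ± 0.054 (adjusted p = 0.000466) under YAP/TAZ siRNA, and was lower with YAP/TAZ siRNA, with a log2 change of -0.61 ± 0.054 (adjusted p = 1.77e-05) without heat and -0.58 ± 0.060 (adjusted p = 4.7e-05) after heat. Eif3j2 had changes of the same signs, namely 0.25, 0.52, -0.64 and -0.37.

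**Figure D3:**
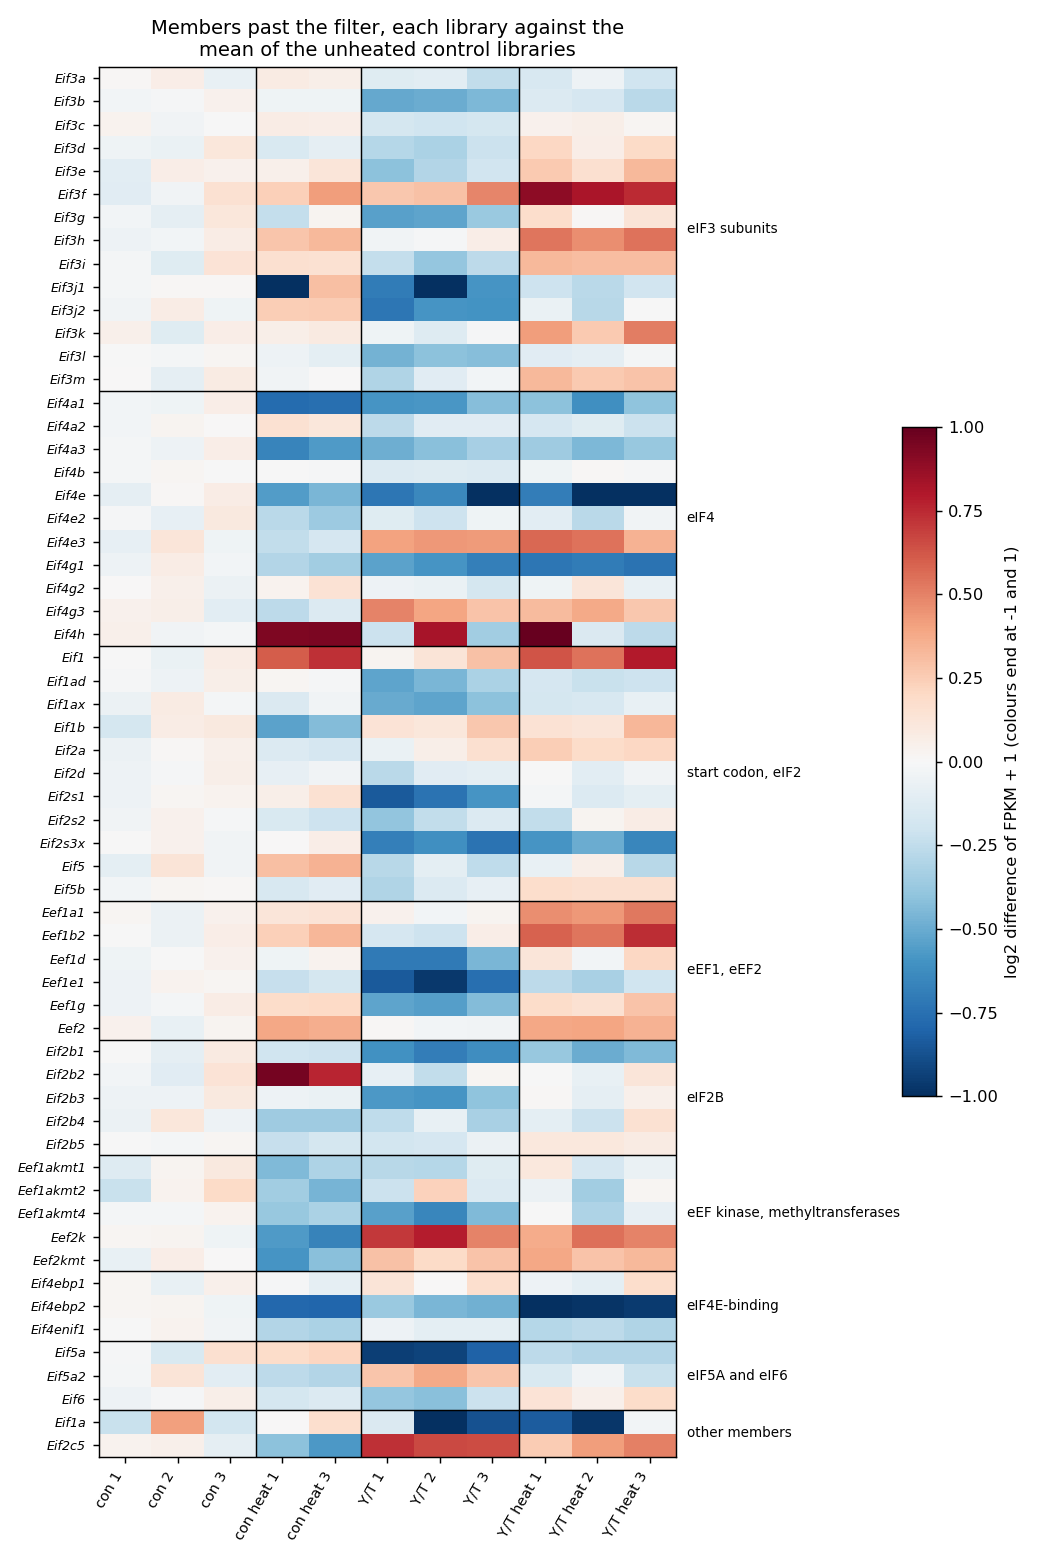
Log2 difference of FPKM + 1 of each tested member (rows, by role) in each library (columns) from the mean of the 3 unheated control libraries, with colours ending at -1 and 1. In the unheated YAP/TAZ siRNA columns most eIF3 and eIF2 rows are blue and Eef2k, Eif2c5 and Eif3f are red, and the single dark cells of Eif3j1, Eif4e and Eif4h mark libraries that differ from their own group.

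The eIF4 genes, which encode the cap-binding protein eIF4E, the scaffold eIF4G and the helicase eIF4A with its helpers, had few heat calls under YAP/TAZ siRNA: of 11 tested, 1 rose and 0 fell (0 and 5 with 1 total, 0 and 4 after quantile normalization). Under control siRNA 0 rose and 4 fell (3 and 3 with median ratios). These 4 falls were 36.4% of the 11 genes, near the 36.9% of all genes called lower. Of all genes, 12.4% rose under control siRNA, and 18.6% rose and 31.7% fell under YAP/TAZ siRNA. With YAP/TAZ siRNA 2 were higher and 6 lower without heat, and 4 higher and 2 lower after heat. The shares of all genes were 27.1% higher and 21.9% lower without heat, and 36.3% and 17.9% after heat. Scaling changed the eIF4 calls for this siRNA effect. After heat, median ratios left 2 genes called higher against 5 lower, quantile normalization 3 against 3, and 1 total 4 against 2. Without heat, lower calls numbered 7, 3 and 5 in that order, with 2 higher each time.

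Eif4a1 (chr11:69666936-69672423, minus strand), the main RNA helicase of eIF4F, read 95.8, 94.5 and 102 FPKM in the unheated control libraries, 56.7 and 57.5 in the heated control, 64.3, 64.9 and 72.4 in the unheated YAP/TAZ siRNA and 73.3, 63.3 and 73.7 in the heated YAP/TAZ siRNA libraries. The 3 unheated control libraries were above all 8 others. Heat lowered it, with a log2 change of -0.76 ± 0.078 (adjusted p = 4.44e-05) under control siRNA and gave 0.059 ± 0.070 (adjusted p = 0.507) under YAP/TAZ siRNA (-0.17 and called after quantile normalization), and the interaction was 0.82 ± 0.10 (adjusted p = 0.000398). YAP/TAZ siRNA gave a log2 change of -0.53 ± 0.070 (adjusted p = 0.000198) without heat. The processed copy Eif4a-ps4 read 129 to 135 FPKM in the unheated control libraries, 38.4 and 69.7 FPKM in the heated ones and 78.4 to 85.7 FPKM with YAP/TAZ siRNA, so reads of the pair may be divided between them. Summed, the pair gave a log2 change of -1.06 ± 0.10 (adjusted p = 3.31e-05) with heat under control siRNA and 0.0052 ± 0.092 (adjusted p = 0.967) under YAP/TAZ siRNA.

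Eif4a3, the helicase of the exon junction complex, read 67.8, 66.4 and 72.1 FPKM in the unheated control libraries, 43.2 and 45.98 in the heated control, 48.9, 51.3 and 54.3 in the unheated YAP/TAZ siRNA and 53.4, 49.95 and 52.7 in the heated YAP/TAZ siRNA libraries. As with Eif4a1, the unheated control libraries were the highest and the heated control libraries the lowest. Heat gave a log2 change of -0.61 ± 0.060 (adjusted p = 3.29e-05) under control siRNA and 0.016 ± 0.054 (adjusted p = 0.828) under YAP/TAZ siRNA, and the interaction was 0.63 ± 0.080 (adjusted p = 0.000401). Eif4a2, the second eIF4A, read 37.9, 39.3 and 38.7 FPKM in the unheated control libraries, 42.97 and 41.96 in the heated control, 32.05, 35.6 and 35.6 in the unheated YAP/TAZ siRNA and 34.3, 35.5 and 33.1 in the heated YAP/TAZ siRNA libraries. Its heat changes were not called (log2 change 0.13 ± 0.056 and -0.0042 ± 0.050). It was lower with YAP/TAZ siRNA after heat, with a log2 change of -0.30 ± 0.056 (adjusted p = 0.00154).

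Eif4g1 (chr16:20668313-20692884, plus strand), the main scaffold, read 165, 180.04 and 168 FPKM in the unheated control libraries, 139 and 134 in the heated control, 117, 113 and 106 in the unheated YAP/TAZ siRNA and 103, 105 and 102 in the heated YAP/TAZ siRNA libraries. The 4 groups did not overlap, in descending order from unheated control to heated control, unheated YAP/TAZ siRNA and heated YAP/TAZ siRNA. YAP/TAZ siRNA lowered it, with a log2 change of -0.61 ± 0.049 (adjusted p = 1.06e-05) without heat and -0.40 ± 0.055 (adjusted p = 0.000265) after heat, and heat lowered it, with a log2 change of -0.32 ± 0.055 (adjusted p = 0.0011) under control siRNA. Under YAP/TAZ siRNA heat gave a log2 change of -0.11 ± 0.049 (adjusted p = 0.0808).

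The paralogs Eif4g3 and Eif4e3 were on the other side. Eif4g3 read 13.9, 14.1 and 12.4 FPKM in the unheated control libraries, 11.04 and 12.1 in the heated control, 19.4, 18.04 and 16.6 in the unheated YAP/TAZ siRNA and 17.000, 17.8 and 16.4 in the heated YAP/TAZ siRNA libraries. Its log2 change with YAP/TAZ siRNA was 0.39 ± 0.071 (adjusted p = 0.00137) without heat and 0.52 ± 0.079 (adjusted p = 0.00049) after heat. Eif4e3, an eIF4E homolog, read 18.8, 21.7 and 19.3 FPKM in the unheated control libraries, 16.6 and 17.6 in the heated control, 26.5, 27.2 and 27.003 in the unheated YAP/TAZ siRNA and 30.1, 29.4 and 25.6 in the heated YAP/TAZ siRNA libraries. All 6 YAP/TAZ siRNA libraries were above the 5 control libraries for both genes. For Eif4e3 YAP/TAZ siRNA gave a log2 change of 0.42 ± 0.071 (adjusted p = 0.000974) without heat and 0.69 ± 0.079 (adjusted p = 8.67e-05) after heat.

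Eif4e (chr3:138526179-138559696, plus strand), the cap-binding protein itself, read 30.2, 32.5 and 33.9 FPKM in the unheated control libraries, 21.5 and 23.2 in the heated control, 19.1, 20.2 and 7.46 in the unheated YAP/TAZ siRNA and 19.5, 7.501 and 6.95 in the heated YAP/TAZ siRNA libraries. All 3 unheated control libraries were highest, and within the YAP/TAZ siRNA groups unheated replicate 3 and heated replicates 2 and 3 stood apart below the other 3 libraries. YAP/TAZ siRNA without heat gave a log2 change of -1.11 ± 0.41 (adjusted p = 0.0469), a call that was lost without any 1 of the 5 control libraries, unheated YAP/TAZ siRNA replicate 3 or heated YAP/TAZ siRNA replicate 2. Eif4h, a helper of eIF4A, read 51.4, 48.5 and 48.8 FPKM in the unheated control libraries, 95.4 and 95.9 in the heated control, 42.6, 88.3 and 38.8 in the unheated YAP/TAZ siRNA and 106, 44.7 and 41.2 in the heated YAP/TAZ siRNA libraries. It split into libraries at 38.8 to 51.4 FPKM and libraries at 88.3 to 106 FPKM, and this split cut across both YAP/TAZ siRNA groups. It was called in no comparison. Replicates of 4 members, namely Eif3j1, Eif4e, Eif4h and Eif1a, differed by over 2-fold in some group, and those of the other 56 by at most 1.5-fold.

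**Figure D4:**
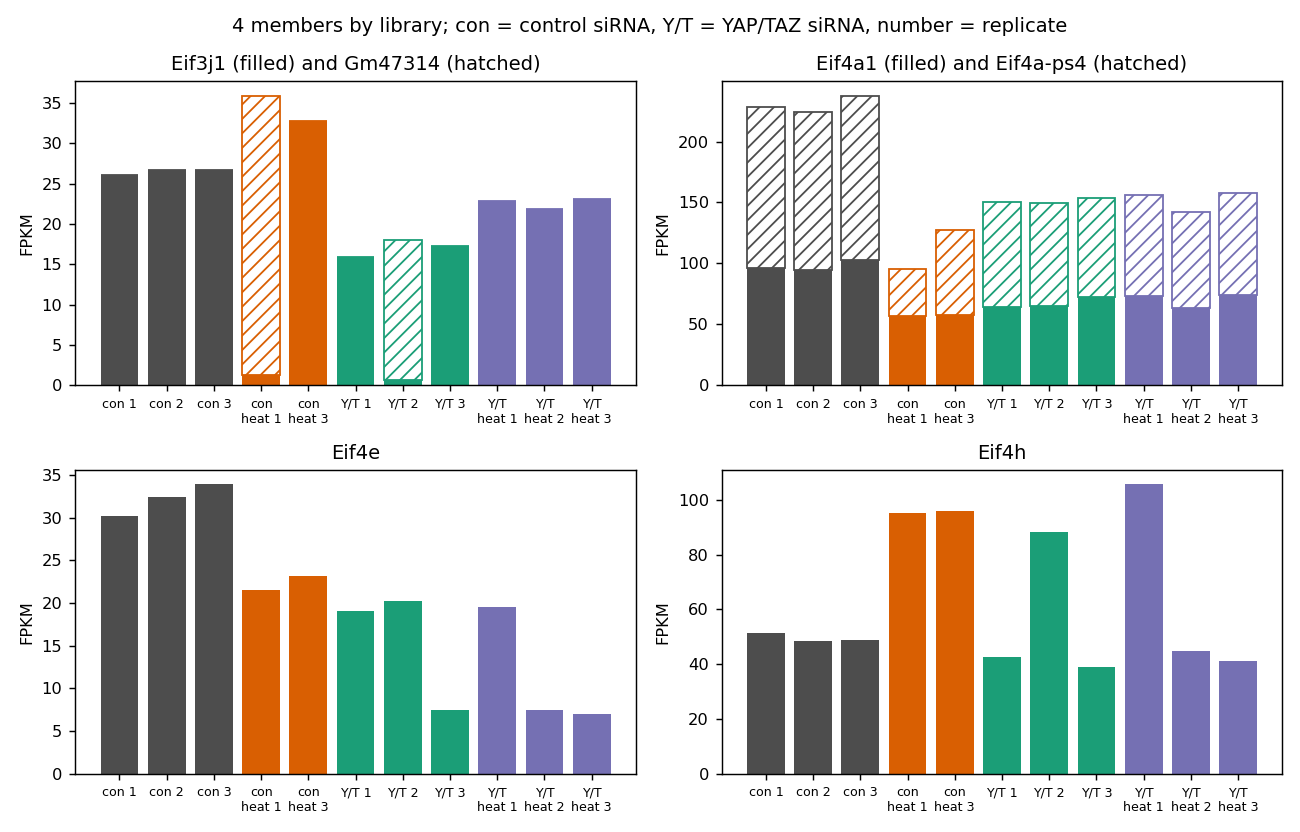
FPKM in each of the 11 libraries, on linear axes from 0, of Eif3j1 with Gm47314, of Eif4a1 with Eif4a-ps4 (each pair stacked), of Eif4e and of Eif4h. Gm47314 is visible only in heated control replicate 1 and unheated YAP/TAZ siRNA replicate 2, where Eif3j1 is near 0, and Eif4e and Eif4h differ between replicates of the YAP/TAZ siRNA groups.

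Of 3 tested genes for proteins that hold eIF4E back, Eif4ebp2 and Eif4enif1 fell with heat under each siRNA. Lower calls with heat were frequent among all genes, at 36.9% with control siRNA and 31.7% when YAP and TAZ were targeted. Whether these 3 genes differed from all genes was not tested. Eif4ebp2 (chr10:61428491-61452661, minus strand), an eIF4E-binding protein controlled by mTOR, read 61.6, 62.1 and 59.1 FPKM in the unheated control libraries, 34.9 and 34.7 in the heated control, 46.8, 44.2 and 43.4 in the unheated YAP/TAZ siRNA and 29.03, 30.4 and 30.8 in the heated YAP/TAZ siRNA libraries. The 4 groups did not overlap, with the heated YAP/TAZ siRNA libraries lowest. Heat lowered it, with a log2 change of -0.79 ± 0.048 (adjusted p = 2.15e-06) under control siRNA and -0.56 ± 0.043 (adjusted p = 2.24e-05) under YAP/TAZ siRNA. Without heat, YAP/TAZ siRNA lowered it, with a log2 change of -0.44 ± 0.043 (adjusted p = 3.4e-05).

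Eif4ebp1, the better known relative, read 28.3, 26.5 and 28.9 FPKM in the unheated control libraries, 27.6 and 26.2 in the heated control, 30.6, 27.9 and 31.4 in the unheated YAP/TAZ siRNA and 26.9, 25.97 and 31.7 in the heated YAP/TAZ siRNA libraries. Its groups overlapped and it was called in no comparison, with log2 changes with heat of -0.051 ± 0.086 and -0.089 ± 0.077. Eif4enif1, which carries eIF4E into the nucleus and to P-bodies, read 12.2, 12.7 and 11.99 FPKM in the unheated control libraries, 9.83 and 9.69 in the heated control, 11.8, 11.4 and 11.4 in the unheated YAP/TAZ siRNA and 9.91, 10.1 and 9.798 in the heated YAP/TAZ siRNA libraries. The heated libraries of both siRNAs were below the unheated ones, with log2 changes of -0.31 ± 0.044 (adjusted p = 0.000404) under control siRNA and -0.20 ± 0.040 (adjusted p = 0.00288) under YAP/TAZ siRNA. The first was lost after quantile normalization (-0.12). Eif4ebp3 stayed at 0 to 0.594 FPKM.

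Among the genes named as elongation factors, 6 of 6 tested rose with heat under YAP/TAZ siRNA, with a median log2 change of 0.65. After quantile normalization 5 of 6 rose, with a median of 0.40. These 6 include Eef1e1, whose product is part of the multi-tRNA synthetase complex. Under control siRNA 3 rose and 1, Eef1e1, fell, with a median of 0.16. The interaction was called higher for 5. YAP/TAZ siRNA lowered 3 and raised 0 without heat. Of all genes, heat raised 18.6% under YAP/TAZ siRNA, and it raised 12.4% and lowered 36.9% under control siRNA. The interaction was called higher for 24.6% of all genes, and YAP/TAZ siRNA without heat lowered 21.9% and raised 27.1%. Eef1a1 and Eef2 alone held 38.9 to 46.3% and 14.8 to 18.3% of the members' summed FPKM, which was 2.07 to 2.51% of all FPKM of a library.

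Eef1a1 (chr9:78478449-78489151, minus strand), which encodes eEF1A, read 2885, 2738 and 2935 FPKM in the unheated control libraries, 3096 and 3137 in the heated control, 2932, 2793 and 2908 in the unheated YAP/TAZ siRNA and 3943, 3862 and 4106 in the heated YAP/TAZ siRNA libraries. The heated YAP/TAZ siRNA libraries were above all others, and the 2 unheated groups overlapped. Heat under YAP/TAZ siRNA raised it by a log2 change of 0.46 ± 0.048 (adjusted p = 9.71e-05), and the interaction was 0.34 ± 0.071 (adjusted p = 0.00583). Heat under control siRNA gave a log2 change of 0.13 ± 0.053 (adjusted p = 0.0735), but -0.20 and called after quantile normalization. A miRNA entry inside it, Gm26377, was listed at 587 to 1488 FPKM, and the gene has many processed copies, so its level is uncertain. The muscle and neuron form Eef1a2 was at 0 to 0.153 FPKM.

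Eef1g (chr19:8967041-8978479, plus strand), the gamma subunit of eEF1B, read 288, 295 and 314 FPKM in the unheated control libraries, 339.6 and 344 in the heated control, 207, 204 and 221 in the unheated YAP/TAZ siRNA and 339, 331 and 365 in the heated YAP/TAZ siRNA libraries. The 3 unheated YAP/TAZ siRNA libraries were the lowest, and the 2 heated groups overlapped. YAP/TAZ siRNA lowered it, with a log2 change of -0.50 ± 0.053 (adjusted p = 5.2e-05) without heat, heat raised it by 0.71 ± 0.053 (adjusted p = 1.96e-05) under YAP/TAZ siRNA, and the interaction was 0.52 ± 0.080 (adjusted p = 0.00116). The rise under control siRNA was a log2 change of 0.19 ± 0.059 (adjusted p = 0.0229) and was lost without unheated control replicate 1 or 2 or either heated control library. It was also lost after quantile normalization.

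Eef1d (chr15:75894205-75909556, minus strand), the delta subunit, read 23.2, 23.9 and 24.7 FPKM in the unheated control libraries, 23.2 and 24.5 in the heated control, 14.3, 14.2 and 17.1 in the unheated YAP/TAZ siRNA and 26.03, 23.4 and 27.7 in the heated YAP/TAZ siRNA libraries. Only the unheated YAP/TAZ siRNA libraries lay apart, below the rest. Its log2 change was -0.62 ± 0.081 (adjusted p = 0.000187) with YAP/TAZ siRNA without heat, 0.72 ± 0.081 (adjusted p = 0.000152) with heat under YAP/TAZ siRNA and -0.0024 ± 0.090 (adjusted p = 0.986) with heat under control siRNA, with an interaction of 0.73 ± 0.12 (adjusted p = 0.00175).

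Eef1b2, the subunit that exchanges the nucleotide on eEF1A, read 141, 136 and 148 FPKM in the unheated control libraries, 167 and 178 in the heated control, 126, 123 and 149 in the unheated YAP/TAZ siRNA and 214, 206 and 237 in the heated YAP/TAZ siRNA libraries. The heated YAP/TAZ siRNA libraries were the highest. Heat gave a log2 change of 0.72 ± 0.081 (adjusted p = 0.000154) under YAP/TAZ siRNA and 0.28 ± 0.091 (adjusted p = 0.0274) under control siRNA, and the latter was lost without unheated control replicate 1 or 2 or either heated control library. Eef1e1, named with this group but part of the multi-tRNA synthetase complex, read 14.2, 15.2 and 14.99 FPKM in the unheated control libraries, 12.4 and 13.01 in the heated control, 7.84, 7.099 and 8.35 in the unheated YAP/TAZ siRNA and 12.2, 11.6 and 12.8 in the heated YAP/TAZ siRNA libraries. Its unheated YAP/TAZ siRNA libraries were below all others. YAP/TAZ siRNA gave a log2 change of -0.85 ± 0.062 (adjusted p = 5.27e-06) without heat, heat gave 0.59 ± 0.062 (adjusted p = 0.000103) under YAP/TAZ siRNA, and its interaction of 0.80 ± 0.092 (adjusted p = 0.000244) had the lowest p-value among the members.

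Eef2 (chr10:81176631-81182498, plus strand), the translocase, read 1131, 1044 and 1117 FPKM in the unheated control libraries, 1435 and 1413 in the heated control, 1106, 1074 and 1070.4 in the unheated YAP/TAZ siRNA and 1434, 1442 and 1398 in the heated YAP/TAZ siRNA libraries. Heated libraries were above unheated ones, and the siRNA groups overlapped at each temperature. Heat raised it by a log2 change of 0.38 ± 0.048 (adjusted p = 0.000182) under control siRNA and 0.39 ± 0.043 (adjusted p = 0.000137) under YAP/TAZ siRNA, with an interaction of 0.018 ± 0.065 (adjusted p = 0.854). After quantile normalization these heat changes were -0.091 and 0.052, neither called.

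**Figure D5:**
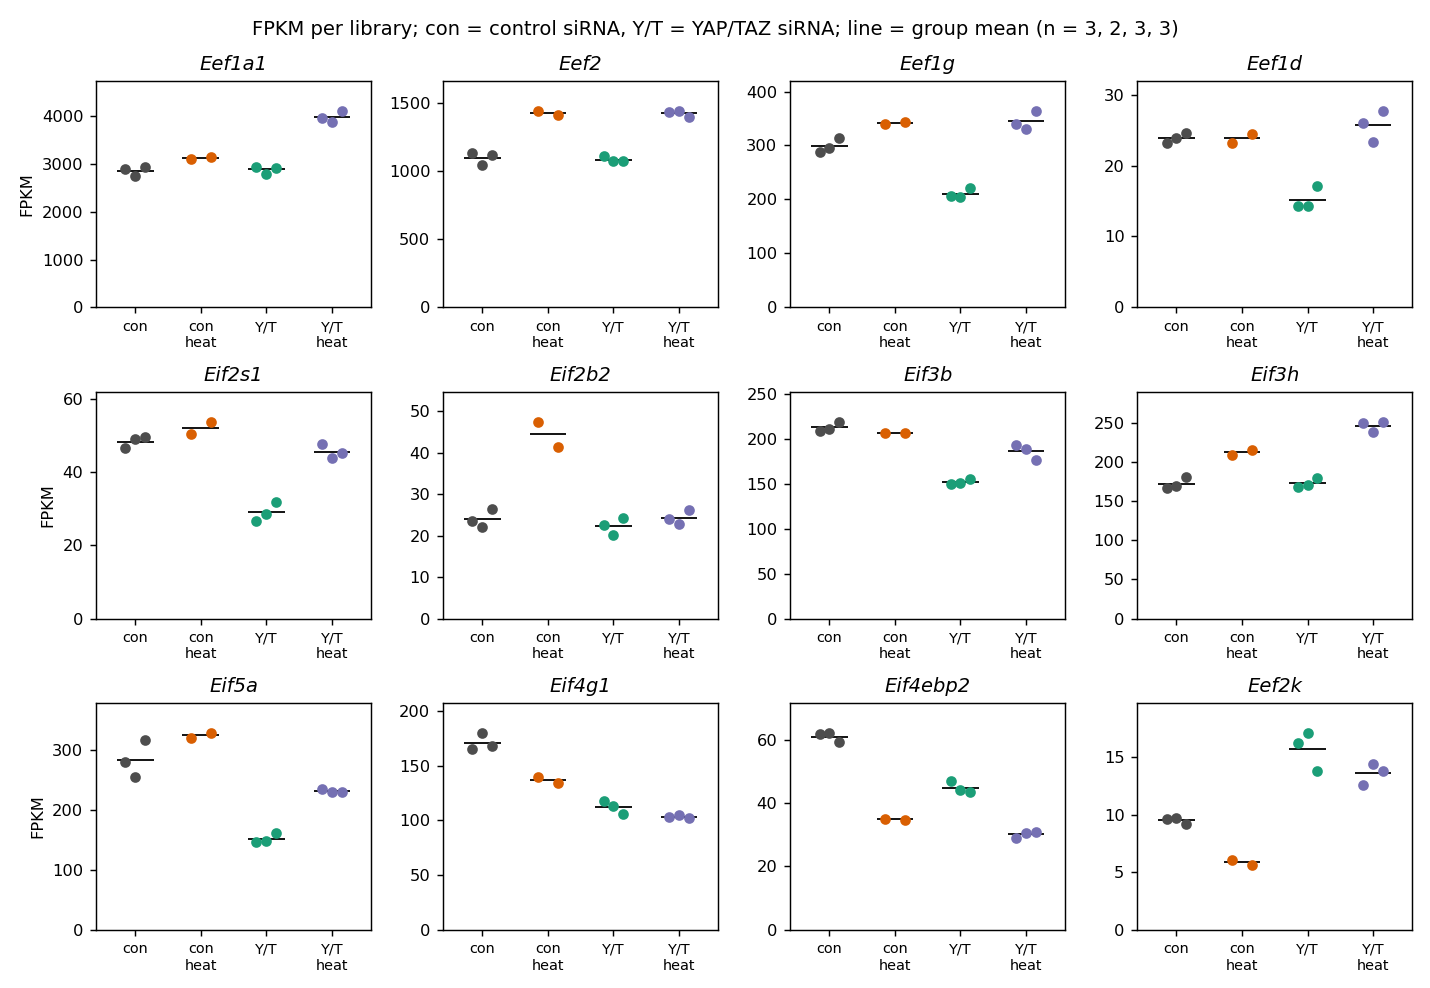
FPKM of 12 members in each library (points) with the group mean (line), on linear axes from 0, for control siRNA (con) and YAP/TAZ siRNA (Y/T) without and with heat. Eef1g, Eef1d, Eif2s1 and Eif3b are lowest in the unheated YAP/TAZ siRNA libraries, Eef2 and Eif3h follow heat under both siRNAs, and Eif2b2 is high only in the 2 heated control libraries.

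Eif5a (chr11:69916714-69921958, minus strand), the hypusine-containing factor that helps ribosomes through difficult peptide bonds, read 279, 254 and 316 FPKM in the unheated control libraries, 319.6 and 328 in the heated control, 146, 148 and 161 in the unheated YAP/TAZ siRNA and 235, 229.8 and 229.9 in the heated YAP/TAZ siRNA libraries. All 6 YAP/TAZ siRNA libraries lay below the control libraries. YAP/TAZ siRNA lowered it, with a log2 change of -0.89 ± 0.073 (adjusted p = 1.1e-05) without heat and -0.48 ± 0.081 (adjusted p = 0.000895) after heat, and heat under YAP/TAZ siRNA raised it by 0.61 ± 0.073 (adjusted p = 0.00021). Its processed copies make the level uncertain. The paralog Eif5a2 read 4.95, 5.61 and 4.61 FPKM in the unheated control libraries, 4.03 and 3.93 in the heated control, 6.33, 6.86 and 6.32 in the unheated YAP/TAZ siRNA and 4.44, 4.89 and 4.18 in the heated YAP/TAZ siRNA libraries. It moved the opposite way to Eif5a, with a log2 change of -0.45 ± 0.074 (adjusted p = 0.0011) for heat under YAP/TAZ siRNA and 0.31 ± 0.074 (adjusted p = 0.00645) for YAP/TAZ siRNA without heat. Its heat change under control siRNA was a log2 change of -0.28 ± 0.083 (adjusted p = 0.0196), lost without unheated control replicate 2 or either heated control library. That call was also lost with median ratios and after quantile normalization.

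Eif6 (chr2:155819832-155826925, minus strand), which keeps the large ribosomal subunit from joining too early, read 42.8, 43.8 and 46.3 FPKM in the unheated control libraries, 39.2 and 40.2 in the heated control, 33.7, 32.8 and 37.96 in the unheated YAP/TAZ siRNA and 48.7, 45.9 and 50.3 in the heated YAP/TAZ siRNA libraries. The unheated YAP/TAZ siRNA libraries were below all others. Its log2 change was -0.34 ± 0.061 (adjusted p = 0.00136) with YAP/TAZ siRNA without heat, 0.46 ± 0.061 (adjusted p = 0.000355) with heat under YAP/TAZ siRNA and -0.16 ± 0.068 (adjusted p = 0.0886) with heat under control siRNA. The interaction was a log2 difference of 0.62 ± 0.092 (adjusted p = 0.00094).

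Of 5 tested genes for enzymes that modify elongation factors, 4 fell and 0 rose with heat under control siRNA, where 36.9% of all genes were called lower, with a median log2 change of -0.40. The falls of Eef1akmt1 and Eef1akmt4 were lost with median ratios and without heated control replicate 1. That of Eef1akmt4 was also lost after quantile normalization. Under YAP/TAZ siRNA 1 rose and 0 fell, against 18.6% and 31.7% of all genes. The interaction was called higher for 4 of these 5 genes and for 24.6% of all genes. Eef2k (chr7:120842831-120907450, plus strand), the kinase that switches eEF2 off, read 9.64, 9.72 and 9.19 FPKM in the unheated control libraries, 6.09 and 5.62 in the heated control, 16.2, 17.1 and 13.8 in the unheated YAP/TAZ siRNA and 12.6, 14.4 and 13.8 in the heated YAP/TAZ siRNA libraries. The heated control libraries were the lowest and all 6 YAP/TAZ siRNA libraries were above both control groups. Heat gave a log2 change of -0.62 ± 0.089 (adjusted p = 0.000374) under control siRNA and -0.19 ± 0.080 (adjusted p = 0.0716) under YAP/TAZ siRNA. YAP/TAZ siRNA raised it by a log2 change of 0.66 ± 0.080 (adjusted p = 0.000115) without heat and 1.09 ± 0.089 (adjusted p = 1.16e-05) after heat, and the interaction of 0.43 ± 0.12 (adjusted p = 0.0205) was lost without heated control replicate 3. That interaction call was also lost with 1 total and after quantile normalization.

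Eef2kmt, a lysine methyltransferase of eEF2, read 4.78, 5.35 and 5.09 FPKM in the unheated control libraries, 3.04 and 3.55 in the heated control, 6.45, 5.93 and 6.41 in the unheated YAP/TAZ siRNA and 6.92, 6.38 and 6.59 in the heated YAP/TAZ siRNA libraries. The heated control libraries were below all others, as for Eef2k. Heat gave a log2 change of -0.50 ± 0.072 (adjusted p = 0.000365) under control siRNA, and YAP/TAZ siRNA gave 0.83 ± 0.072 (adjusted p = 1.6e-05) after heat. Of the eEF1A lysine methyltransferases, Eef1akmt4 fell with heat under control siRNA (-0.35) and rose under YAP/TAZ siRNA (0.41). Eef1akmt1 fell under control siRNA (-0.38), and Eef1akmt2 was called nowhere.

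Eif2c5 entered by name only. It carries an old Argonaute-style name and is annotated as a long intergenic non-coding RNA. It read 5.84, 5.93 and 5.29 FPKM in the unheated control libraries, 4.04 and 3.49 in the heated control, 10.1, 9.59 and 9.49 in the unheated YAP/TAZ siRNA and 6.99, 7.93 and 8.49 in the heated YAP/TAZ siRNA libraries. It was higher with YAP/TAZ siRNA, with a log2 change of 0.68 ± 0.076 (adjusted p = 7.48e-05) without heat and 0.89 ± 0.085 (adjusted p = 3.08e-05) after heat. Heat lowered it, with a log2 change of -0.49 ± 0.085 (adjusted p = 0.00117) under control siRNA and -0.29 ± 0.076 (adjusted p = 0.0121) under YAP/TAZ siRNA, the latter lost with median ratios or quantile normalization. Eif1a, a protein-coding relative of Eif1ax that was counted in no role group, ranged from 11.8 to 37.1 FPKM with no call.

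Genes that act on these factors without carrying their names were read from a list of 41, of which 40 were found and tested. With heat, 7 rose and 16 fell under control siRNA (17.5% and 40%, against 12.4% and 36.9% of all genes), and 9 rose and 10 fell under YAP/TAZ siRNA (22.5% and 25%, against 18.6% and 31.7%). The interaction was called higher for 12 and lower for 4 (30% and 10%, against 24.6% and 13.4%). YAP/TAZ siRNA without heat raised 8 and lowered 14 (20% and 35%, against 27.1% and 21.9%). Ppp1r15a, which encodes the stress-induced subunit GADD34 that brings a phosphatase to eIF2 alpha, read 2.93, 3.77 and 2.801 FPKM in the unheated control libraries, 32.9 and 29.3 in the heated control, 3.49, 3.06 and 3.72 in the unheated YAP/TAZ siRNA and 5.804, 6.35 and 5.37 in the heated YAP/TAZ siRNA libraries. The heated control libraries were far above the rest. Heat raised it by a log2 change of 2.95 ± 0.11 (adjusted p = 2.19e-07) under control siRNA and 0.63 ± 0.10 (adjusted p = 0.000956) under YAP/TAZ siRNA, with an interaction of -2.32 ± 0.15 (adjusted p = 1.48e-05). Pdcd4, which encodes an inhibitor of eIF4A, read 2.82, 3.26 and 2.89 FPKM in the unheated control libraries, 4.86 and 4.42 in the heated control, 9.77, 9.5999 and 10.3 in the unheated YAP/TAZ siRNA and 4.52, 4.85 and 3.996 in the heated YAP/TAZ siRNA libraries. It was highest in the unheated YAP/TAZ siRNA libraries and rose with heat under control siRNA (0.50) but fell under YAP/TAZ siRNA (-0.997). Eif2ak3, which encodes the eIF2 kinase PERK, was higher with YAP/TAZ siRNA without heat (log2 change 0.64 ± 0.052, adjusted p = 1.06e-05) and fell with heat under YAP/TAZ siRNA (-0.67 ± 0.052, adjusted p = 2.34e-05). These genes were singled out after their values were seen.

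Each comparison kept only part of its member calls under every alternative of scaling, filter, pseudocount, block and left-out library. These were 3 of 9 higher and 8 of 17 lower for heat under control siRNA, and 22 of 31 higher and 3 of 4 lower for heat under YAP/TAZ siRNA. For YAP/TAZ siRNA without heat they were 7 of 7 higher and 23 of 31 lower, and after heat 11 of 21 and 8 of 12. For the interaction they were 18 of 34 higher and 1 of 1 lower. The higher calls for heat under control siRNA fell from 9 to 4 without unheated control replicate 1, to 5 without heated control replicate 1 and to 4 without heated control replicate 3, and the lower calls from 17 to as few as 10.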

How the data were processed

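RNA from 11 B16-OVA libraries was read as gene levels. The authors deposited 1 table of FPKM values, made from their reads with Trimmomatic 0.36, HISAT2, SAMtools and StringTie on GRCm38, per the submitters' processing notes, which give no role or order. For settings, annotation release and strandedness, the sources used here give nothing, and the table came without read counts, so that depth is only an estimate. Without stated strand, reads of overlapping genes cannot be told apart: 35 of 65 members overlap another entry, 19 a gene on the opposite strand.

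Ensembl identifiers were matched to symbols (54038 of 54104) and positions to GENCODE M21 on GRCm38. Values were analysed as log2(FPKM + 1), a scale that understates changes of low genes, for entries at 1 FPKM or more in 2 or more libraries. All 11 libraries entered 1 fit (limma 3.58.1, R 4.3.3, a mean per group, empirical Bayes with trend, 7 residual degrees of freedom), with Benjamini-Hochberg adjustment over all genes in each of 5 comparisons, and values after ± are standard errors. The fit was tested on simulated data. Alternatives were a pseudocount of 0.1, no filter, a filter at 5 FPKM, 3 scalings, a replicate block and leaving out each library. Sums of Eif3j1 with Gm47314 and of Eif4a1 with Eif4a-ps4 were added after seeing the data.

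Named genes are, per comparison, up to 4 called members in each direction by p-value and 17 fixed members. Eif3b, Eif3f, Eif3j1, Eif4h and single genes beside the role groups were singled out after their values were seen. The members and all lists were chosen with earlier results of these data known. Tables were made with pandas 2.3.3 and numpy 2.4.6 in Python 3.11.15 and figures with matplotlib 3.10.9, and promoter sequences came from RefSeq on GRCm38.p6.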

Additional observations from a re-analysis of the deposited data

Results flagged for a closer look

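The heat change differed between the siRNAs, by the interaction term of the limma fit, for 35 of the 60 members, against 24.6% and 13.4% of all genes called higher and lower. Values are the log2 heat change under YAP/TAZ siRNA minus that under control siRNA, with its standard error. Among the 35, Eif2b2 had the single negative value (-0.74 ± 0.14, adjusted p = 0.00313). Among the genes named as elongation factors the others were Eef1a1 (0.34 ± 0.071), Eef1b2 (0.44 ± 0.12), Eef1d (0.73 ± 0.12), Eef1e1 (0.80 ± 0.092) and Eef1g (0.52 ± 0.080). Among enzymes that modify elongation factors they were Eef2k (0.43 ± 0.12), Eef2kmt (0.57 ± 0.10), Eef1akmt1 (0.56 ± 0.13) and Eef1akmt4 (0.76 ± 0.12). Among the eIF2B genes they were Eif2b1 (0.40 ± 0.081), Eif2b3 (0.57 ± 0.11), Eif2b4 (0.52 ± 0.15) and Eif2b5 (0.44 ± 0.062), and among those of start codon selection and initiator tRNA Eif1ax (0.44 ± 0.085), Eif1b (0.51 ± 0.13), Eif2a (0.31 ± 0.091), Eif2s1 (0.53 ± 0.10), Eif2s2 (0.39 ± 0.14) and Eif5b (0.48 ± 0.083). The eIF3 genes were Eif3b (0.34 ± 0.065), Eif3c (0.15 ± 0.050), Eif3d (0.55 ± 0.091), Eif3e (0.46 ± 0.11), Eif3g (0.69 ± 0.13), Eif3h (0.21 ± 0.070), Eif3i (0.45 ± 0.10), Eif3k (0.39 ± 0.11), Eif3l (0.44 ± 0.059) and Eif3m (0.45 ± 0.11). The rest were Eif4a1 (0.82 ± 0.10), Eif4a3 (0.63 ± 0.080), Eif4ebp2 (0.23 ± 0.065), Eif5a (0.41 ± 0.11) and Eif6 (0.62 ± 0.092). Adjusted p-values of the 35 ran from 0.000244 to 0.0470. The median interaction of all genes tested was 0.11. The calls of 19 members held under every alternative and left-out library. Of the other 16, the calls of Eef1b2, Eef2k, Eif1b, Eif2a, Eif2b4, Eif2s2, Eif3b, Eif3c, Eif3h, Eif3i, Eif3k, Eif3l, Eif3m, Eif4ebp2 and Eif5a were lost after quantile normalization, where Eif3c and Eif3h also changed sign, and that of Eef1a1 with no filter on low values. Without heated control replicate 1 the calls of Eef1b2, Eif1b, Eif2a, Eif2b4, Eif2s2, Eif3c, Eif3h, Eif3k, Eif4ebp2 and Eif5a were lost, and without heated control replicate 3 those of Eef2k, Eif2a, Eif2b4, Eif2s2, Eif3c, Eif3h, Eif3k and Eif4ebp2.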

How the results depend on the processing

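The counts of called members depended most on scaling. With median ratios, heat under control siRNA gave 20 higher and 9 lower calls and a members' median of 0.086, and YAP/TAZ siRNA after heat gave 11 higher and 19 lower calls, a median of -0.019 and -0.14 for Eef2. With 1 total per library, lower calls rose to 26 for heat under control siRNA and to 11 for heat under YAP/TAZ siRNA. After quantile normalization, lower calls were 11 for heat under control siRNA and 9 for heat under YAP/TAZ siRNA, and the interaction had 19 higher and 3 lower calls. It also turned the sign of Eef2 (-0.091) and Eef1a1 (-0.20) for heat under control siRNA, Eif3a (-0.32) and Eif4a1 (-0.17) for heat under YAP/TAZ siRNA, Eef1a1 (-0.14) for YAP/TAZ siRNA without heat and Eef1g (-0.19) for YAP/TAZ siRNA after heat. The sum with Gm47314 turned Eif3j1 to 0.36 for heat under control siRNA and to -0.58 for YAP/TAZ siRNA after heat. The cause of these changes was not tested.

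Leaving out 1 library at a time, higher calls ranged from 4 to 10 and lower calls from 10 to 20 for heat under control siRNA, and higher calls from 11 to 23 for YAP/TAZ siRNA after heat. Where heated control is left with 1 library, it is assumed to vary like the other groups. The other 7 counts stayed within 1.5 times. Over 110 changes of single named members, 1872 of 1990 recomputed values kept their sign where called and their side of the threshold, 67 lost the call, 42 gained it and 9 turned.

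Same-numbered libraries of different groups deviated together little. The correlations of their deviations over 15 pairs ran from -0.11 to 0.13, with a median of 0.0096 and 3 over 0.1. Over 30 pairs of different number they ran from -0.18 to 0.16, with a median of -0.017 and 2 over 0.1. Deviations were taken from group means, so those within a group cancel out, and the same-number and different-number correlations are not independent. They therefore cannot settle whether replicate numbers mark pairs. The main fit did not take replicate numbers as pairs. With a replicate block the interaction had 37 higher and 3 lower calls, and the other 8 counts stayed within 1.5 times.

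With 2 heated control libraries, small changes under control siRNA are the least certain. Members with near-identical copies or entries inside them (Eif3j1, Eif3j2, Eif4a1, Eef1a1, Eif5a, Eif1, Eif1ax) are uncertain at the gene level.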
